A study of Arabidopsis thaliana with 8 samples.

Results

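The response examined here is that of the *pwr-2* mutant of *Arabidopsis thaliana* to 2 hours at 27°C. It was read from 4 of the 8 RNA-seq libraries of the series, which are the 2 replicates of *pwr-2* kept at 23°C and the 2 replicates of *pwr-2* shifted to 27°C. The libraries were chosen by genotype, temperature and time alone, and no measured value entered the choice. The *pwr-2* line carries a T-DNA insertion in *POWERDRESS* (*PWR*, AT3G52250) in the Col-0 background and is a single insertion line. All 8 libraries came from whole seedlings that were 6 days old and grown in short days, each a pool of many seedlings. The other 4 libraries are wild-type Col-0 at 23°C and at 27°C, and they serve as a comparison. The comparison asks which transcripts respond to the shift in the mutant.

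PWR is a SANT-domain protein that works with the histone deacetylase HDA9, and loss of deacetylation leaves acetyl marks on histone tails that favour transcription. A mild rise in ambient temperature normally makes Arabidopsis seedlings elongate their hypocotyls and petioles, a set of growth changes called thermomorphogenesis. The transcription factor PIF4 drives that growth in part through auxin made by YUC8, and warmth also raises transcripts of heat-shock chaperones such as HSP70. Growth in warmth and immune signalling are known to trade off in this species, which is why defence genes are described here beside the growth genes.

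The *pwr-2* libraries held between 10009884 and 13966181 counted fragments, and the Col-0 libraries between 7379650 and 15733741. Levels are given as CPM, which is a gene's count divided by its library's total after TMM scaling and put on a common scale for all libraries. *PWR* itself stood at 11.3 to 20.12 CPM in the 4 *pwr-2* libraries and at 43.0 to 81.7 CPM in the 4 Col-0 libraries, so the groups did not overlap. Within the mutant, *PWR* differed between temperatures by 0.24 ± 0.32 (log2 fold change ± SE), with an edgeR adjusted p of 0.743. Chloroplast genes took 6.46% and 0.0363% of the counts in replicates 1 and 2 of *pwr-2* at 23°C, and 3.28% and 2.11% at 27°C. The summed level of the seed and embryo markers was 6.96 CPM in replicate 2 of *pwr-2* at 23°C and 59.8 to 456 CPM in the other *pwr-2* libraries. Replicate 1 of Col-0 at 23°C also stood apart from the other Col-0 libraries in the genes described below.

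Genes that rose in *pwr-2* after 2 hours at 27°C included genes of defence, of indole and glutathione metabolism, of abscisic acid and dehydration responses, and of anthocyanin synthesis. Genes that fell included the copper chaperone *CCS*, the cold-regulated gene *COR15B* and several genes of root transport and root cell walls. With the replicate number as a block, edgeR's quasi-likelihood test called 70 genes higher at 27°C and 10 lower among 19050 tested, at a Benjamini-Hochberg adjusted p under 0.05. These are 0.367% and 0.0525% of the genes tested. At an unadjusted p under 0.05 the same test had 3440 of the 19050 genes, the count to set beside those of the lists below. In that count were 32 of 45 salicylic acid, 35 of 58 pattern-triggered immunity, 19 of 28 camalexin and 21 of 38 jasmonate genes. So were 14 of 31 flavonoid, 21 of 52 abscisic acid, 12 of 28 copper and 13 of 40 iron genes. The heat-shock list had 14 of 33, auxin 18 of 49, sugar starvation 14 of 38, root markers 19 of 27 and seed markers 3 of 10. For the other lists it is given with the list. The rises had a median log2 fold change of 2.195 (range 1.25 to 4.99) and the falls a median of -1.9998 (range -3.71 to -1.35). The median over all genes tested was 0.01.

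All 80 genes moved in one direction in both replicate pairs, while of all 19050 genes tested 6346 rose and 5948 fell in both. In 67 of the 70 rises both libraries at 27°C lay above both at 23°C, against 17.3% of all genes tested. In 8 of the 10 falls both libraries at 27°C lay below both at 23°C, against 15% of all genes tested. The genes were called on these same 4 libraries, so such agreement follows largely from the call and is not separate support. The adjusted p of all 80 genes lay between 0.0384 and 0.0498, close under the threshold. DESeq2 called each of the 80 genes too. The test had 1 residual degree of freedom, and edgeR added a mean of 4.23 prior degrees of freedom from the spread shared across genes. It therefore rests on that shared spread as well as on how alike the 2 pairs of a gene were. With all 8 libraries in 1 fit, 0 genes were called by edgeR, and 897 had an unadjusted p under 0.05. Each *pwr-2* library was also left out in turn from a fit of the other 7 libraries, where the replicate effect rests on the other groups, Col-0 included, and 0 genes were then called. The fitted change of 37 of the 70 rises and 6 of the 10 falls moved by over 1.5 times when some 1 library was left out. Leaving out replicate 2 at 27°C moved 33 of the 70 rises that far and turned 4 of the 70 negative, and the median of the 70 was then 1.34. Values moved that far are given below for the called genes described, each as the log2 fold change without the library named.

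When the fit was limited to nuclear genes, 445 genes were called higher (2.35% of 18937) and 141 lower (0.745%), and these include all 80 genes of the fit on all genes. The plot of the 2 replicate pairs shows both sets of calls.

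**Figure D1:**
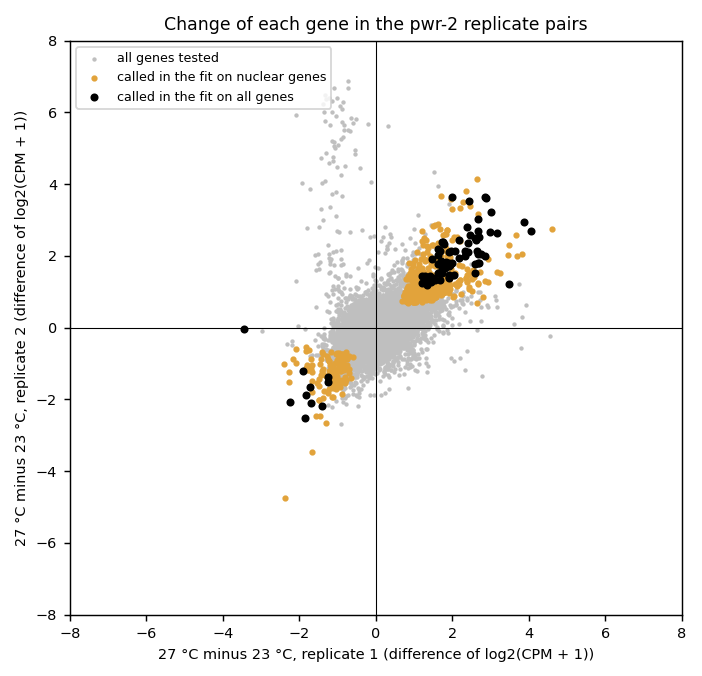
Difference of log2(CPM + 1) between 27°C and 23°C in *pwr-2* replicate 1 (x axis) and replicate 2 (y axis), with 1 point for each of the 19050 genes tested. The 80 genes called in the fit on all genes (black) and those called in the fit on nuclear genes (orange) lie in the quadrants where both pairs changed the same way, and a column of grey points that rise only in replicate 2 lies to the left of 0.

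The largest rise was that of *CYP71B22*, a cytochrome P450 gene. It had 1 and 2 counts in *pwr-2* at 23°C and 75 and 33 counts at 27°C, a ratio of 38.2 per effective library size with a 95% counting interval of 12.7 to 188.3. It was near zero at 23°C in both replicates and detected in both at 27°C. The next was *AT5G38910*, which encodes a protein of the cupin superfamily and stood at 0.108 and 0.585 CPM at 23°C and at 3.39 and 18.8 CPM at 27°C (log2 fold change 4.96 ± 0.35). *GLIP1*, a secreted GDSL lipase of ethylene-linked immunity, rose from 1.19 and 0.13 CPM to 16.8 and 9.65 CPM (4.55 ± 0.49). With replicate 2 at 27°C left out, the change of *AT5G38910* was 0.076, and with replicate 2 at 23°C left out it was 9.64. That of *GLIP1* was 9.69 when replicate 1 at 27°C was left out. The size of these changes therefore depended on single libraries.

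The rest of the 15 largest rises hold further genes tied to defence, ageing and drying. *SAG13*, a marker of leaf senescence, stood at 0.866 and 1.04 CPM at 23°C and at 8.76 and 13.3 CPM at 27°C (3.52 ± 0.29). *WAK1*, a wall-associated receptor kinase, stood at 4.11 and 2.34 CPM and then at 26.8 and 37.9 CPM (3.37 ± 0.34). In both genes the lowest library at 27°C was several times the highest at 23°C. *AT1G26390*, a berberine bridge enzyme gene of the family that oxidises indole and cell-wall compounds, rose from 2.92 and 1.56 CPM to 27.8 and 30.3 CPM (3.76 ± 0.29). *LEA7*, a late embryogenesis abundant protein made in drying tissue, had the highest mean level of the 15 in *pwr-2*. It stood at 53.9 and 12.1 CPM at 23°C and at 797 and 100.5 CPM at 27°C, so each pair rose but the replicates differed widely at both temperatures (3.47 ± 0.27). The others were *AT5G45630*, *MYB90*, *AT5G15500*, *MBP1*, *BGLU24*, *NAC036*, *AT5G04380* and *CSLA10*, with log2 fold changes of 3.28 to 4.34. Leaving out replicate 2 at 27°C gave 0.467 for *SAG13*, 1.02 for *AT1G26390*, 1.57 for *WAK1* and 1.92 for *CSLA10*. Leaving out replicate 2 at 23°C gave 6.51 for *SAG13* and 6.24 for *AT1G26390*. Leaving out replicate 1 at 27°C gave 5.47 for *SAG13*, 5.76 for *AT1G26390* and 8.59 for *MYB90*.

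Genes with high levels rose as well. *FSD1*, an iron superoxide dismutase, stood at 693 and 579.8 CPM at 23°C and at 1600.3 and 1562 CPM at 27°C (1.32 ± 0.14). *GSTF2* and *GSTF6* encode glutathione transferases of the phi class. *GSTF2* rose from 259 and 141 CPM to 802 and 485 CPM (1.70 ± 0.16), and *GSTF6* from 114 and 76.5 CPM to 700.4 and 436 CPM (2.56 ± 0.17). Each has a close paralog, so reads could be shared between copies. *AT3G28270*, a DUF677 protein of unknown function, rose from 65.8 and 38.2 CPM to 333 and 156 CPM (2.18 ± 0.18). In the fit without replicate 2 at 27°C, *FSD1* changed by 0.625, *GSTF2* by 0.916 and *GSTF6* by 1.16, and without replicate 2 at 23°C *GSTF6* changed by 4.015.

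**Figure D2:**
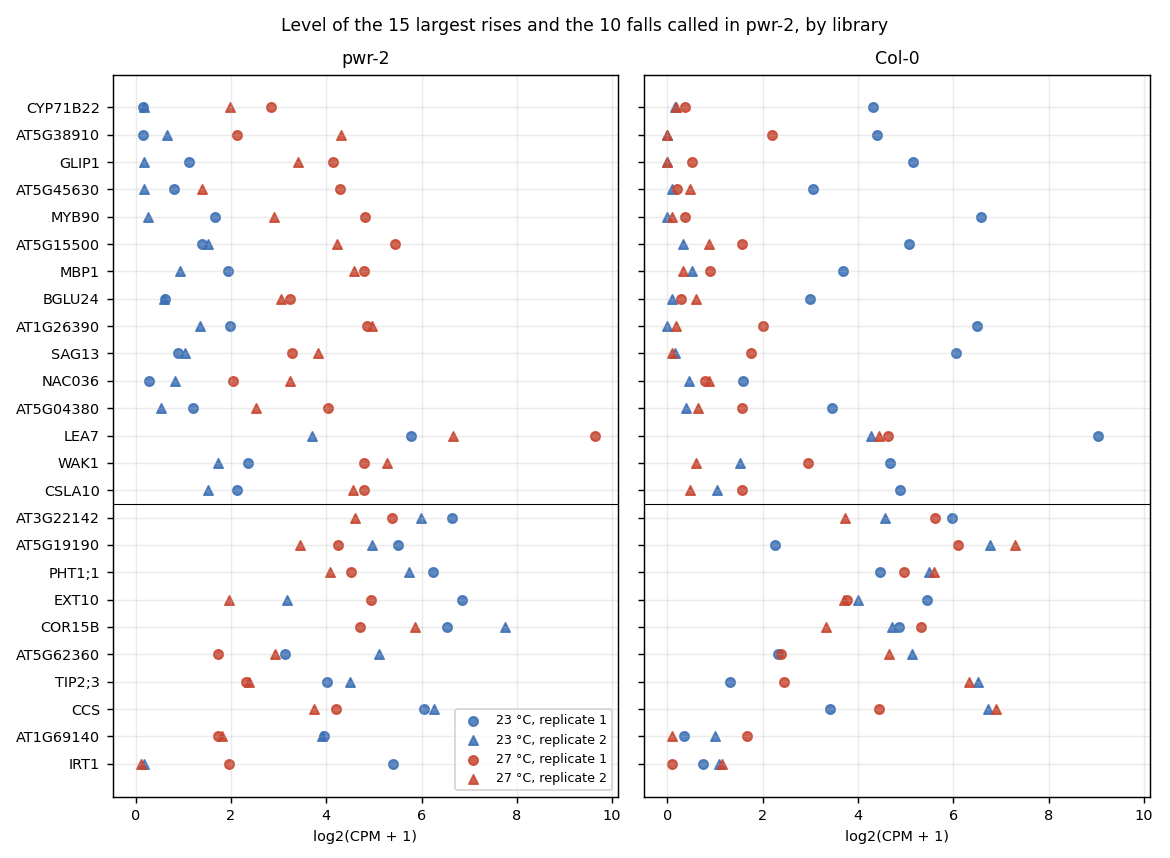
Level, as log2(CPM + 1), of the 15 largest rises (above the line) and the 10 falls (below it) in each *pwr-2* library (left) and each Col-0 library (right), with circles for replicate 1, triangles for replicate 2, blue for 23°C and red for 27°C. In *pwr-2* the red points lie to the right of the blue in the upper block. In Col-0 the blue circle of replicate 1 at 23°C lies to the right of the other 3 libraries in those genes.

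In Col-0 the levels of these genes depended on the replicate. Among 19386 genes tested in Col-0, edgeR called 0 (0%), 756 had an unadjusted p under 0.05, and DESeq2 called 34. Of the 70 genes that rose in *pwr-2*, 63 were tested in Col-0, and 57 of these had a negative log2 fold change there. The 70 genes changed by a median of -2.68 in Col-0 replicate 1 and of 0.06 in replicate 2, on the log2(CPM + 1) scale. In *pwr-2* the corresponding medians were 1.95 and 1.92. In replicate 1 of Col-0 at 23°C, 69 of the 70 genes exceeded both *pwr-2* libraries at 23°C, against 35.2% of all genes tested. In replicate 2 of Col-0 at 23°C, 8 of the 70 did, against 37.5%. *GLIP1*, for example, had 259 counts in the first of these Col-0 libraries and 0 in the second. At 23°C, then, Col-0 held 1 library above and 1 library mostly below the mutant in the genes that rose in the mutant. Of the 70 genes, 25 fell in both Col-0 pairs, against 25.3% of all genes tested.

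The difference of the 2 responses was tested with all 8 libraries. None of 19936 genes passed (0%), 915 had an unadjusted p under 0.05, and DESeq2 called 25, all with the higher response in *pwr-2*. Of the 70 rises, 55 had an unadjusted p under 0.05 with the higher response in *pwr-2*, against 3.55% of all genes tested, and their lowest adjusted p was 0.926. The 70 were picked for rising in *pwr-2* libraries that also enter this test. A high share follows in part from that pick and is not separate evidence of a difference. Of the 10 falls, 2 had an unadjusted p under 0.05. Without replicate 2 of Col-0 at 23°C, edgeR called 223 genes, and without any other single library it called 0. In edgeR's fit of all 8 libraries, then, no gene's response was shown to differ between the genotypes, while DESeq2 called a difference for the 25 genes above.

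The promoters of the 2 largest rises and the 2 largest falls, and that of *FSD1*, are printed to show which known motifs lie in them. *FSD1* was added after its values were seen. Each run covers 250 bases before and 50 bases after the start of the RefSeq gene in TAIR10.1, 5′ to 3′ on the gene's strand, with capitals for any match to TTGAC (the core of the W-box bound by WRKY factors), GAANNTTC (a heat shock element), CACGTG (the G-box) or GTAC (the core bound by the copper regulator SPL7), on either strand.
CYP71B22: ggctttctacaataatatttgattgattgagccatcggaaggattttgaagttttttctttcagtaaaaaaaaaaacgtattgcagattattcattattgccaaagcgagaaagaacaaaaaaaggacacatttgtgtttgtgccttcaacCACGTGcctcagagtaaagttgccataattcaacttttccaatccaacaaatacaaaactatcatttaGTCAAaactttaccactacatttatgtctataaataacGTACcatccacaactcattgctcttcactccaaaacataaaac
AT5G38910: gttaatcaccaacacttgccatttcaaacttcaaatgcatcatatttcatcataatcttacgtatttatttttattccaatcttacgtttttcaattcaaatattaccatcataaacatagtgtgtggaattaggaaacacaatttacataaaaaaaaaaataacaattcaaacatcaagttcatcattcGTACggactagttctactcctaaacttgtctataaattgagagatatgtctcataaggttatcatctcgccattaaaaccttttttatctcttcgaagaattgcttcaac
IRT1: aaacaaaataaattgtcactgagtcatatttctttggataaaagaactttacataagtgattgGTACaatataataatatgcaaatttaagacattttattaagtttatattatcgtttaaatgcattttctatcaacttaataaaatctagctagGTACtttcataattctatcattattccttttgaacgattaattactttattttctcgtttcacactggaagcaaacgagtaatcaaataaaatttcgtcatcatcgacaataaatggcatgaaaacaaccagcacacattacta
AT1G69140: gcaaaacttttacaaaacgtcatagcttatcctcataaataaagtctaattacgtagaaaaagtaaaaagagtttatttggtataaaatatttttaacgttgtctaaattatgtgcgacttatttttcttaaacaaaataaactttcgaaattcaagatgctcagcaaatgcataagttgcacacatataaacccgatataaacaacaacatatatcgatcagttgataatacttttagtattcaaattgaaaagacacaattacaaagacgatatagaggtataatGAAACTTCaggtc
FSD1: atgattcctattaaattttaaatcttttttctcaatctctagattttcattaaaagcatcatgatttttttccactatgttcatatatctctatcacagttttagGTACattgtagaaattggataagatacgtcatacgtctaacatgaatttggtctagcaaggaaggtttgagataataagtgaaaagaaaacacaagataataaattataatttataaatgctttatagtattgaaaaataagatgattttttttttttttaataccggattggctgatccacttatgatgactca

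The windows lie at chr3:9588999-9589298 on the plus strand for *CYP71B22*, at chr5:15578499-15578798 on the plus strand for *AT5G38910*, at chr4:10707094-10707393 on the plus strand for *IRT1*, at chr1:25991969-25992268 on the minus strand for *AT1G69140* and at chr4:12886962-12887261 on the minus strand for *FSD1*. Such windows could be read for 18939 of the genes tested. GTAC was present in 64.3% of the windows of the 70 rises and in 39.5% of all windows. GAANNTTC was present in 25.7% and 11.3%, CACGTG in 20% and 9.09%, and TTGAC in 54.3% and 50.7%. In the windows of the 10 falls, GTAC was present in 30%, GAANNTTC in 30%, CACGTG in 0% and TTGAC in 20%. Among the 444 windows of genes called higher in the fit on nuclear genes, GTAC was present in 51.6%, GAANNTTC in 19.6%, CACGTG in 15.3% and TTGAC in 60.1%. These shares are descriptions of letters in a window and were not tested.

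Of the 10 genes that fell, several act in uptake by the root or in its cell walls. *IRT1*, the main iron transporter of the root epidermis, had 380 and 2 counts at 23°C and 35 and 1 counts at 27°C (-3.71 ± 0.40). Its fall rests on replicate 1. With the 23°C library of replicate 1 left out, the fitted change was 3.45, in the opposite direction. With that of 27°C left out it was -6.61. *TIP2;3*, a tonoplast aquaporin of roots, stood at 15.1 and 21.6 CPM at 23°C and at 3.97 and 4.24 CPM at 27°C (-2.14 ± 0.21). *PHT1;1*, a phosphate uptake transporter with a close paralog, stood at 74.5 and 52.0 CPM and then at 21.9 and 16.0 CPM (-1.74 ± 0.14). In both of these genes the 2 temperatures did not overlap. *EXT10*, an extensin of the cell wall, stood at 115 and 8.0 CPM at 23°C and at 29.8 and 2.89 CPM at 27°C (-1.77 ± 0.19), so its replicates differed more than its temperatures. When replicate 1 at 23°C was left out, *TIP2;3* changed by -0.107 and *EXT10* by -0.275. When replicate 1 at 27°C was left out, they changed by -4.38 and -2.85, and *TIP2;3* changed by -1.01 without replicate 2 at 27°C.

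The other falls were *AT1G69140*, annotated as a transcribed pseudogene (14.6 and 13.98 CPM at 23°C, 2.31 and 2.53 CPM at 27°C), *CCS*, *COR15B*, *AT5G62360* (a pectin methylesterase inhibitor family member, -2.11 ± 0.23), *AT5G19190* (-1.45 ± 0.15) and *AT3G22142* (-1.35 ± 0.14). *AT5G19190* stood at 0.016 when the first 23°C library of the mutant was left out. It stood at -3.02 without replicate 1 at 27°C and at -0.577 without replicate 2 at 27°C. In replicates 1 and 2 of Col-0, *AT5G19190* stood at 3.76 and 107 CPM at 23°C and at 67.4 and 156 CPM at 27°C.

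Root markers moved with these falls. Of 27 root markers tested, 1 was called lower and 0 higher in the fit on all genes, and 10 lower and 0 higher in the fit on nuclear genes. The 1 called in the fit on all genes is *TIP2;3*, already among the falls above. The median log2 fold change of the 27 was -1.18, and 5 of them had a positive change. In both pairs 22 of the 27 were lower, against 5948 of all 19050 genes tested. The summed level of the 32 root markers in the tables was 1707 and 1352 CPM in *pwr-2* at 23°C and 1079 and 822 CPM at 27°C. The 4 Col-0 libraries stood at 1160.5 to 1277 CPM in this sum, but single markers could differ by replicate. In replicates 1 and 2 of Col-0, *TIP2;3* stood at 1.48 and 90.5 CPM at 23°C and at 4.42 and 79.8 CPM at 27°C. *CASP1*, which builds the Casparian strip of the endodermis, stood at 26.7 and 23.0 CPM at 23°C and at 12.6 and 9.56 CPM at 27°C. *PRP3*, a root hair wall protein, stood at 84.9 and 7.67 CPM and then at 16.7 and 2.71 CPM. None of the 32 root markers in the tables was at 0 in all *pwr-2* libraries. In whole seedlings fewer root cells and less RNA per root cell cannot be told apart, and the part of root content in the falls was not tested.

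The other marker lists moved less or unevenly. The 12 markers of green shoot tissue had a median of -0.17, the 12 of vasculature -0.06, the 14 of stomata and epidermis 0.09 and the 23 of dividing cells 0.33, with 0 called by edgeR in the fit on all genes. At an unadjusted edgeR p under 0.05 there were 3, 1, 2 and 8, against 3440 of all 19050 genes tested. DESeq2 called 1, a stomata and epidermis marker, and the fit on nuclear genes called 1 marker of that list higher. The 10 seed and embryo markers tested changed by a median of -0.24 in pair 1 and 2.31 in pair 2. Chloroplast genes, 61 tested, changed by a median of -1.08 in pair 1 and 5.19 in pair 2, and the 24 mitochondrial genes tested by -1.04 and 1.17. Of the organelle genes 0 were called by edgeR, 0 had an unadjusted p under 0.05 and DESeq2 called 0.

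Salicylic acid is the hormone of immunity against pathogens that feed on living cells. Of its 45 genes tested, 2 were called higher in the fit on all genes and 0 lower, and 17 of 44 were called higher in the fit on nuclear genes. The list's median log2 fold change was 1.24, with pair medians of 0.90 and 0.94, against 0.01 over all genes. The summed level of the list changed less, from 735 and 830 CPM at 23°C to 833 and 1009.5 CPM at 27°C. *WRKY70*, a transcription factor acting after salicylic acid, stood at 4.98 and 4.29 CPM at 23°C and at 22.2 CPM in both libraries at 27°C (2.27 ± 0.19). *GRX480*, a glutaredoxin induced by salicylic acid, stood at 2.49 and 3.71 CPM and then at 13.0 and 15.3 CPM (2.19 ± 0.22). In the 7-library fit without replicate 2 at 27°C, *WRKY70* changed by 1.19 and *GRX480* by 0.116. That fit takes its replicate effect from the other groups, Col-0 included. In Col-0 at 23°C *WRKY70* stood at 14.5 and 0.741 CPM and *GRX480* at 14.9 and 0.371 CPM. *GRX480* changed by 4.33 without replicate 2 and by 1.198 without replicate 1 at 23°C. *BGL2*, the glucanase known as PR2, had 6 and 0 counts at 23°C and 116 and 88 counts at 27°C. It and *ACD6*, a membrane regulator of salicylic acid signalling at 3.57 and 2.28 CPM and then 14.4 and 18.8 CPM, passed only in the fit on nuclear genes.

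Pattern-triggered immunity is the first layer of defence. Of 58 genes of it and of the rapid wound response tested, 1 was called higher and 0 lower, and 13 higher and 0 lower in the fit on nuclear genes, with a median of 0.90. The called gene was *YLS9*, also known as *NHL10*, at 10.6 and 6.24 CPM at 23°C and 43.7 and 23.2 CPM at 27°C (1.97 ± 0.16). The nuclear fit added the NADPH oxidase gene *RBOHD*, which makes the oxidative burst, at 42.4 and 34.0 CPM and then 75.4 and 74.1 CPM.

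Camalexin and the indole glucosinolates are defence compounds made from tryptophan. Of their 28 genes tested, 3 were called higher and 0 lower, and 15 higher and 0 lower in the fit on nuclear genes, with a median of 0.89. *PAD3*, the last enzyme of camalexin synthesis, stood at 13.8 and 12.1 CPM at 23°C and at 117 and 81.8 CPM at 27°C (2.91 ± 0.17). *CYP79B3*, which makes the shared indole-3-acetaldoxime, stood at 47.0 and 41.0 CPM and then at 139.8 and 105 CPM (1.46 ± 0.15). *GSTF6*, described above, is the third. Without replicate 2 at 27°C, *PAD3* changed by 1.09 and *CYP79B3* by 0.805, and without replicate 2 at 23°C by 4.88 and 2.235. *CYP79B3* changed by 0.899 without replicate 1 at 23°C. Every step from *CYP79B2* or *CYP79B3* through *CYP71A12* or *CYP71A13* to *PAD3* had a gene called in the fit on nuclear genes. In Col-0 the list's pair medians were -1.38 and 0.00, and *PAD3* had 1247 counts in replicate 1 and 22 in replicate 2 at 23°C.

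Jasmonate is the hormone of wounding and of defence against chewing insects. Of 38 of its genes tested, 1 was called higher and 0 lower, and 11 higher and 0 lower in the fit on nuclear genes, with a median of 0.57. The called gene was *VSP2*, a vegetative storage protein and a common jasmonate marker, at 47.7 and 22.7 CPM at 23°C and 184 and 101 CPM at 27°C (2.05 ± 0.16). It changed by 0.984 without replicate 2 at 27°C. *LOX2*, a lipoxygenase that starts jasmonate synthesis in chloroplasts, stood at 608 and 319 CPM and then at 1233 and 618 CPM and passed in the fit on nuclear genes (0.99 ± 0.12). Its 2 temperatures did not overlap, but the lower library at 27°C lay close above the higher one at 23°C.

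**Figure D3:**
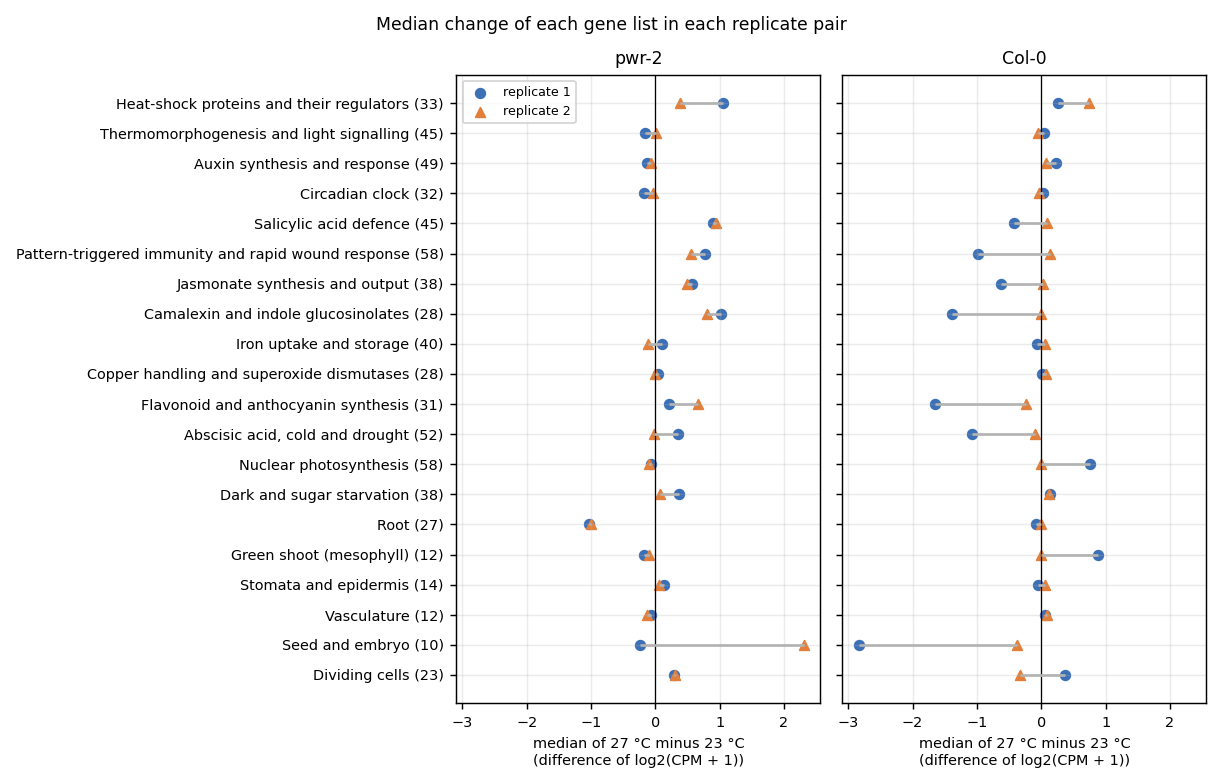
Median change of each gene list between 27°C and 23°C on the log2(CPM + 1) scale, in replicate pair 1 (circles) and pair 2 (triangles), for *pwr-2* (left) and Col-0 (right), with the number of genes tested in *pwr-2* in brackets. In *pwr-2* the 4 defence lists lie above 0 and the root markers near -1 in both pairs, while in Col-0 the defence lists lie below 0 in pair 1 and between 0.00 and 0.13 in pair 2.

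Anthocyanins are red pigments that shield tissue under light, sugar and stress. Of 31 flavonoid and anthocyanin genes tested, 1 was called higher and 0 lower, and 8 higher and 0 lower in the fit on nuclear genes, with a median of 0.43. The pair medians were 0.20 and 0.66, and 18 of the 31 rose in both pairs. The summed level of the list overlapped between temperatures, at 4274 and 1716 CPM at 23°C and 5852 and 3552 CPM at 27°C. The called gene was *MYB90* (*PAP2*), a MYB activator of anthocyanin synthesis, at 2.16 and 0.195 CPM at 23°C and 27.3 and 6.495 CPM at 27°C (4.01 ± 0.35). It changed by 8.59 without replicate 1 at 27°C. *DFR*, the reductase that commits the pathway to anthocyanins, stood at 112 and 20.7 CPM and then at 441 and 257 CPM. *LDOX*, the next enzyme, stood at 73.0 and 28.7 CPM and then at 229 and 220.2 CPM. *DFR*, *LDOX*, the activator *PAP1* and the bHLH factor *TT8* passed in the fit on nuclear genes. In Col-0 *DFR* had 6436 and 14 counts at 23°C and 633 and 7 counts at 27°C, so its level there was set by the replicate more than by the temperature.

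The list of abscisic acid, cold and drought genes moved both ways. Of 52 tested, 2 were called higher and 1 lower, and 7 higher and 3 lower of 53 in the fit on nuclear genes, with a median of 0.15. The 2 that rose were *HAI1*, a clade A protein phosphatase induced by abscisic acid, at 13.5 and 6.96 CPM at 23°C and 90.2 and 34.1 CPM at 27°C (2.52 ± 0.18), and *HAB1*, a phosphatase of the same clade (1.33 ± 0.14). Both are known as brakes on abscisic acid signalling. *RAB18*, a dehydrin, stood at 80.6 and 102 CPM and then at 896 and 419.9 CPM and passed in the fit on nuclear genes (2.75 ± 0.34), as did *LTI65* (2.102 ± 0.24). *GEA6*, a seed protein and the only seed marker to pass there, stood at 11.1 and 0.975 CPM and then at 52.0 and 10.5 CPM. The part of the seed markers in the dehydration genes was not tested.

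*COR15B*, a cold-induced protein that protects chloroplast membranes, stood at 91.7 and 214 CPM at 23°C and at 25.04 and 56.8 CPM at 27°C (-1.89 ± 0.15). It changed by -0.928 without replicate 2 at 23°C. *LTI78* stood at 864 and 1076 CPM and then at 494 and 366 CPM and passed in the fit on nuclear genes (-1.18 ± 0.20). The third member of the list to fall there was *ABF1*, a transcription factor of abscisic acid responses (-1.05 ± 0.15).

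Transcripts of superoxide dismutases moved in opposite directions. Plants short of copper are known to replace the copper and zinc enzymes CSD1 and CSD2 with the iron enzyme FSD1, through SPL7 and the microRNA miR398. Of 28 genes of copper handling and superoxide dismutases tested, 1 was called higher (*FSD1*) and 1 lower (*CCS*), and 2 higher and 3 lower in the fit on nuclear genes, with a median of 0.03. *CCS*, the chaperone that loads copper into CSD1 and CSD2, stood at 65.8 and 75.3 CPM at 23°C and at 17.5 and 12.4 CPM at 27°C (-2.25 ± 0.21). It changed by -0.978 without replicate 1 at 23°C, by -3.81 without replicate 1 at 27°C and by -1.24 without replicate 2 at 27°C. *CSD2*, the chloroplast enzyme, had 5691 and 5703 counts at 23°C and 1428 and 141 counts at 27°C. *CSD1*, the cytosolic enzyme, stood at 132 and 191 CPM and then at 52.5 and 29.2 CPM. *CSD1* (-2.01 ± 0.33) and *CSD2* (-3.54 ± 0.57) fell in the fit on nuclear genes, where the copper chaperone *CCH* rose (1.13 ± 0.14). In each of these 5 genes the 2 temperatures did not overlap.

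In Col-0 the same genes separated by replicate. *CSD2* stood at 17.45 and 279.5 CPM in replicates 1 and 2 at 23°C and at 57.2 and 295 CPM at 27°C, and *FSD1* at 2137 and 597 CPM and at 1980.2 and 634 CPM. Replicate 1 of Col-0 was therefore low in *CSD2* and high in *FSD1* at both temperatures.

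**Figure D4:**
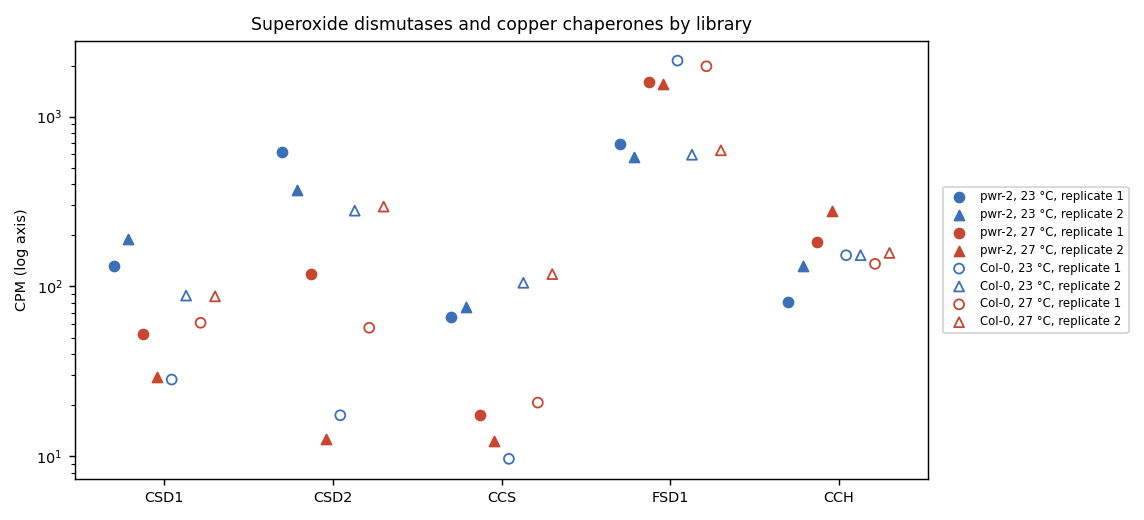
CPM (log axis) of *CSD1*, *CSD2*, *CCS*, *FSD1* and *CCH* in each library, with filled symbols for *pwr-2*, open symbols for Col-0, blue for 23°C, red for 27°C, circles for replicate 1 and triangles for replicate 2. In *pwr-2* the red symbols lie below the blue for *CSD1*, *CSD2* and *CCS* and above them for *FSD1* and *CCH*, while the open symbols of *CSD2*, *CCS* and *FSD1* separate by replicate.

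Iron genes gave few calls. Of 40 tested, *YSL2* was called higher and *IRT1* lower, and 3 were called higher and 2 lower in the fit on nuclear genes, with a median of 0.04. *YSL2*, a transporter of metals bound to nicotianamine, stood at 40.8 and 27.1 CPM at 23°C and at 128 and 114 CPM at 27°C (1.86 ± 0.17). It changed by 1.03 without replicate 2 at 27°C.

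Heat-shock proteins are the chaperones that warmth is best known to induce. Of 33 heat-shock genes tested, 1 was called higher and 0 lower in both fits, with a median of 0.67 and pair medians of 1.05 and 0.38. *Hsp70-2*, a cytosolic chaperone, stood at 19.4 and 20.03 CPM at 23°C and at 53.5 and 55.7 CPM at 27°C (1.47 ± 0.14). *HSP70* (AT3G12580) stood at 84.8 and 289 CPM and then at 753 and 496 CPM. Its libraries did not overlap, but its pairs differed by 3.13 and 0.78 on the log2(CPM + 1) scale and it did not pass (1.96 ± 0.59, edgeR adjusted p = 0.182). In Col-0 its pairs differed by 0.78 and 2.299, and the difference of the responses had an unadjusted edgeR p of 0.862.

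Of 45 genes of thermomorphogenesis and light signalling, 0 were called by edgeR in either fit and 0 by DESeq2, with 5 at an unadjusted p under 0.05 and a median of -0.12. *PIF4* stood at 138 and 107 CPM at 23°C and at 117 and 85.3 CPM at 27°C (-0.28 ± 0.15, edgeR adjusted p = 0.412). *YUC8* was low in all 4 libraries, at 3.03, 2.54, 2.89 and 2.44 CPM (-0.06 ± 0.30, edgeR adjusted p = 0.937). Neither gene passed, and an SE of 0.30 leaves room for a moderate change of *YUC8* in either direction. The most abundant members, *SPA1* and *STO*, had log2 fold changes of -0.20 ± 0.17 and 0.00 ± 0.16.

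Of 49 auxin genes, 1 was called higher and 0 lower, with a median of -0.07. It was *GH3.3*, an enzyme that conjugates auxin to amino acids and so removes it, at 13.5 and 8.13 CPM at 23°C and 47.4 and 47.0 CPM at 27°C (2.17 ± 0.22). It changed by 0.562 without replicate 2 at 27°C, by 3.46 without replicate 2 at 23°C and by 3.26 without replicate 1 at 27°C. *BRU6* (AT4G37390), annotated as an auxin-responsive GH3 family protein, is not on the list and was named after its values were seen. It was also called higher, at 19.2 and 11.7 CPM at 23°C and 54.5 and 46.5 CPM at 27°C (1.75 ± 0.18). Of 32 clock genes, 0 were called by edgeR in the fit on all genes (9 at an unadjusted p under 0.05, 2 lower by DESeq2) and 1 lower in the fit on nuclear genes, the evening repressor *PRR5* (-1.15 ± 0.20). *TIC* and *GI* had log2 fold changes of -0.09 ± 0.16 and -0.59 ± 0.16.

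Of 58 nuclear photosynthesis genes, 0 were called by edgeR in the fit on all genes (10 at an unadjusted p under 0.05, 1 lower by DESeq2) and 1 lower in the fit on nuclear genes, with a median of -0.07. *RBCS1A* and *CAB1*, among the most abundant transcripts of the seedling, had log2 fold changes of -0.25 ± 0.08 and -0.17 ± 0.08. Of 38 genes of darkness and sugar starvation, 1 was called higher and 0 lower, with a median of 0.26. It was *APL4*, a subunit of the enzyme that starts starch synthesis, at 39.2 and 34.0 CPM at 23°C and 92.2 and 82.4 CPM at 27°C (1.25 ± 0.14). In the 7-library fit without replicate 2 at 27°C it changed by -0.018, although both libraries at 27°C stood above both at 23°C. That fit takes its replicate effect from the other groups, Col-0 included, and *APL4* stood at 159.6 and 7.6 CPM in Col-0 at 23°C. It changed by 0.604 without replicate 1 at 23°C, by 2.51 without replicate 2 at 23°C and by 1.95 without replicate 1 at 27°C. The 13 cytosolic ribosomal protein genes and the 11 core histone genes that the product text found had medians of -0.17 and 0.00, with 0 called by edgeR in either fit, 0 at an unadjusted p under 0.05 and 0 by DESeq2.

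Enzyme and protein families, found by their product text and chosen after their values were seen, were uneven as well. Glutathione transferases metabolise defence compounds and foreign chemicals, and of 50 tested 2 were called higher and 0 lower, with 7 higher and 0 lower in the fit on nuclear genes. Of 19 berberine bridge enzymes 3 were called higher and 0 lower, and 7 and 0 in the fit on nuclear genes. Of 161 cytochrome P450 genes 4 were called higher and 0 lower, and 17 higher and 4 lower in the fit on nuclear genes. Peroxidases of the peroxidase superfamily, which act in defence and in cell walls, had 3 of 53 called higher and 0 lower, and 9 higher and 8 lower in the fit on nuclear genes. Of 43 extensins and 24 aquaporins 1 each was called lower and 0 higher, and 10 and 3 lower and 0 higher in the fit on nuclear genes.

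**Figure D5:**
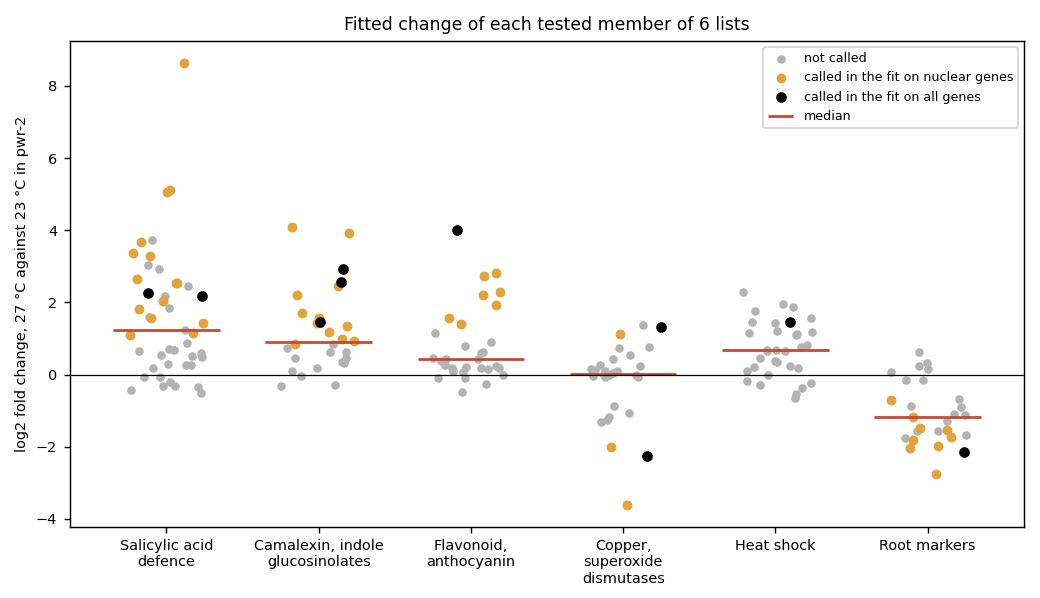
Fitted log2 fold change, 27°C against 23°C in *pwr-2*, of each tested member of 6 lists (1 point a gene), with black for genes called in the fit on all genes, orange for genes called in the fit on nuclear genes, grey for the others and a red line at each list's median. The medians run from 1.24 for salicylic acid defence to -1.18 for the root markers, and the copper list holds called genes on both sides of 0 around a median of 0.03.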

How the data were processed

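RNA of whole seedlings was sequenced as paired-end reads. Per the labels and methods, the authors checked reads with FastQC, removed ribosomal RNA reads with SortMeRNA, aligned the rest to TAIR10 with TopHat2 2.1.0 and Bowtie2 2.1.0, and counted fragments per gene with featureCounts 1.4.5. The authors deposited raw counts for 33602 genes, and these counts were used as deposited. The strand setting is not given in the sources used here. The authors' normalized table was not used. Symbols and positions came from the RefSeq annotation of TAIR10.1 (32835 genes matched).

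The main test was edgeR 4.0.16 in R 4.3.3 (quasi-likelihood, TMM, filterByExpr), on the 4 libraries of a genotype or on all 8 for the difference of responses, with the replicate number as a block because the study modelled a batch effect between replicates. As a check of this pairing, the deviations of same-numbered libraries from their group means correlated at 0.56 between temperatures in *pwr-2* and 0.65 in Col-0 across 19936 genes, and at 0.26 to 0.37 between genotypes. The SE is the size of the log2 fold change divided by the square root of F. DESeq2 1.42.0 was an alternative. The replicates are described as biological, and p-values measure the spread between these libraries only. Intervals from counts cover counting error only.

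The genes named are the 15 largest rises and up to 10 falls, the 5 most abundant of the called genes, *PWR*, *PIF4*, *YUC8* and *HSP70*, every called member of the 14 pathway lists, and the 2 most abundant members of lists without a call. Members named as called only in the fit on nuclear genes, and marker genes, were picked after their values were seen. The genes, lists and tests were chosen with earlier results of these data known, and list symbols shared by several genes were resolved by annotation.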

Additional observations from a re-analysis of the deposited data

How the results depend on the processing

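The number of genes called in *pwr-2*, 80 by edgeR with the replicate block, depended on the setting. It was 0 with no replicate block (1154 at an unadjusted p under 0.05), 0 with all 8 libraries in 1 fit, 0 at an adjusted p under 0.01 and 36 with upper-quartile normalization. It was 416 with at least 10 counts in every library, 586 on nuclear genes alone, 685 with no filter, 636 with DESeq2 and 623 with DESeq2 and its prior. Leaving out any 1 *pwr-2* library in a fit of the other 7 gave 0 to 0 calls (330 to 773 at an unadjusted p under 0.05), and the same held on nuclear genes alone, an alternative added after seeing the data. In Col-0 the count of 0 became 34 with DESeq2 and 30 with its prior. For the difference of responses the count of 0 became 25 and 22, and leaving out 1 library gave 0 to 223. The causes were not tested. All 80 genes were among the calls of the fits on nuclear genes, without a filter and with DESeq2.

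Leaving out replicate 1 of *pwr-2* at 23°C turned *IRT1* to 3.45, *AT5G19190* to 0.016, *YUC8* to 0.25, *SPA1* to 0.13, *STO* to 0.36, *TIC* to 0.012, *RBCS1A* to 0.098 and *CAB1* to 0.059. Leaving out replicate 2 of *pwr-2* at 27°C turned *PWR* to -0.036, *YUC8* to 0.20, *STO* to 0.30 and *APL4* to -0.018, and leaving out replicate 2 at 23°C turned *PWR* to -0.35. *STO*, near 0 throughout, was 0.00771 with no filter, 0.00335 with at least 10 counts and 0.00164 with all 8 libraries. Over all settings the median of the salicylic acid list ran from 0.49 to 1.75, that of the camalexin list from 0.24 to 1.80, that of the heat-shock list from 0.16 to 1.42, and that of the root markers from -1.81 to -0.24. That of the chloroplast genes ran from -0.53 to 5.73.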
